A study of Mus musculus with 8 samples.

Results

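A set of 10 genes of the blood vessel lining, all with established roles in angiogenesis, were followed through 8 mouse induced pluripotent stem cell (iPSC) clones: Mmrn2, Flt1, Kdr, Nrp1, Tek, Tie1, Cdh5, Pecam1, Esam and Eng. They are 10 of the 21427 gene symbols in the count table, and for each symbol the RefSeq record (the reference transcript) with the highest mean count was used. Mmrn2 was chosen by its difference in normalized count between TKO and Ctrl clones, and the others are known endothelial genes taken with that difference in view, so the values of all 10 in TKO against Ctrl clones are given as a description, with no test. The comparisons that did not choose the genes are tested. The TKO clones (35, 37, 47 and 48) came from mouse embryonic fibroblasts (MEFs) without functional Miwi, Mili and Miwi2, the mouse Piwi genes, and the Ctrl clones (33, 34, 41 and 43) from littermate MEFs, described by the study in one place as heterozygous for all of them and in another as either heterozygous or wild type. All the MEFs carried an Oct4-GFP reporter on a mixed strain background, came from mid- to late-gestation embryos, and were reprogrammed with retroviruses for OCT4, SOX2, KLF4 and c-MYC. The clones were kept below 10 passages in medium with LIF, and RNA was taken from each clone on its own. Of each genotype 2 clones have numbers in the thirties and 2 in the forties, and since no label explains the numbers, these sets go under the name of clone series. The labels do not tie clones to embryos, so a p-value measures the spread between these clones.

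An endothelial cell reads vascular growth factors through receptor tyrosine kinases: VEGF ligands through FLT1 and KDR with NRP1 as co-receptor, and angiopoietins through TEK (TIE2) with its relative TIE1. Cell contacts of the vessel wall are held by CDH5 (VE-cadherin), PECAM1 (CD31) and ESAM, endoglin (ENG) is a co-receptor for TGF-beta and BMP ligands, and MMRN2 (multimerin-2) is a matrix glycoprotein of the EMILIN family that binds VEGF-A and the receptors CLEC14A, CD93 and CD248. Undifferentiated mouse pluripotent cells are not endothelial, but PECAM1 is also known from their surface, and KDR (FLK1) marks early mesoderm as well as vessels.

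Total counts were 24593995 to 52457455 in the TKO libraries and 8983203 to 24688324 in the Ctrl libraries, and values are given as normalized counts, that is, read counts divided by DESeq size factors. Of 27052 records, 16235 reached 5 reads in 4 or more of the 8 libraries and were tested, among them all 10 genes described here. Per clone in the order given above, the Mili record (Piwil2) had 10084, 10065, 6685 and 3845 normalized counts in TKO clones, against 758, 888, 1028 and 905 in Ctrl clones. Miwi2 (Piwil4) had 2862, 2731, 1672 and 936, against 769, 621, 487 and 499, and Miwi (Piwil1) had 4.53, 2.41, 3.01 and 2.56, against 8.13, 28.8, 11.4 and 11.2. Counts per whole transcript do not resolve the deleted exons, and the study describes the mutant transcripts as truncated, so these values do not check the deletions. The summed level of 10 pluripotency markers was 68939 to 80139 in TKO clones and 73411 to 89769 in Ctrl clones. No marker was at 0 in every library. Esrrb has 2 records, of which the one used did not exceed 1.45 in any clone, so its level is uncertain. Within the pluripotency sum Pou5f1 (OCT4) was lower in TKO clones, with 16013, 15866, 17235 and 19185 normalized counts against 26294, 28971, 24772 and 24310 in Ctrl clones (log2 fold change -0.61, SE 0.10, edgeR adjusted p = 0.038). The study, which required a change of 2.5-fold, describes Oct4 as not affected, and its Oct4-GFP reporter was comparable by flow cytometry. Reads of the retroviral OCT4, if any, were not separated from this record.

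Mmrn2 set the genotypes apart. Its record (NM_153127, 3935 bases; chromosome 14, 35188690 to 35217473, plus strand, mm9) had 383, 364, 256 and 204 normalized counts in TKO 35, 37, 47 and 48, against 1013, 1091, 1215 and 916 in Ctrl 33, 34, 41 and 43. Every TKO clone lay below every Ctrl clone, and the highest TKO clone was below the lowest Ctrl clone by more than the whole TKO range. The means were 302 ± 85.7 in TKO and 1059 ± 126 in Ctrl clones (SD, n = 4 each), a log2 fold change of -1.81 (SE 0.21). Within the forties the log2 fold change was -2.21 (SE 0.18), and within the thirties it was -1.50 (SE 0.17). The libraries held 239 to 1170 reads of it each. Leaving out any single clone kept the log2 fold change between -1.94 (without TKO 35) and -1.66 (without TKO 48). In bulk RNA, fewer cells expressing a gene and less RNA per cell cannot be told apart.

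**Figure D1:**
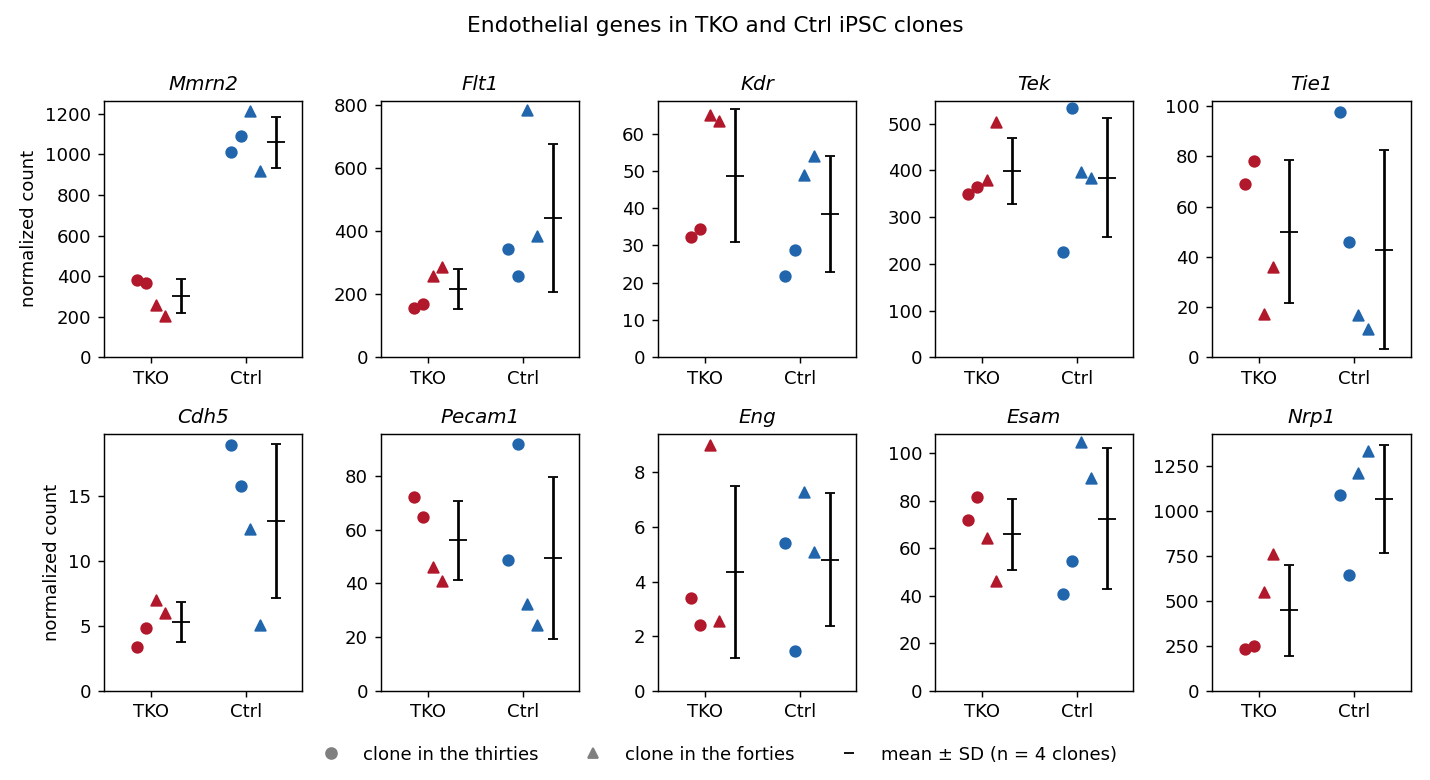
Normalized counts (vertical axes, each from 0) of the 10 endothelial genes in the 4 TKO clones (left, red) and the 4 Ctrl clones (right, blue), with circles for clones in the thirties, triangles for clones in the forties and bars for the mean ± SD. Mmrn2 is the gene whose genotypes do not overlap, with 204 to 383 in TKO and 916 to 1215 in Ctrl clones, and Kdr, Tie1 and Pecam1 separate circles from triangles.

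The VEGF receptor and co-receptor genes did not move as a set between genotypes. Flt1 encodes VEGFR1, which binds VEGF-A tightly but signals weakly, and its record (NM_010228; chromosome 5, 148373180 to 148537587, minus strand, mm9) had 155, 169, 256 and 285 normalized counts in TKO clones, against 344, 256, 783 and 384 in Ctrl clones. TKO 47 and 48 reached the level of Ctrl 34, so the groups overlapped, and Ctrl 41 stood above all other clones. The means were 216 ± 64.0 in TKO and 442 ± 234 in Ctrl clones (SD, n = 4 each), with a log2 fold change of -1.04 (SE 0.35) that became -0.61 without Ctrl 41. Nrp1, the co-receptor for VEGF-A that also receives class 3 semaphorins (NM_008737; chromosome 8, 130882973 to 131029362, plus strand, mm9), had 229.7, 248, 552 and 759 normalized counts in TKO clones, against 1089, 642, 1214 and 1333 in Ctrl clones. TKO 48 alone reached above the lowest Ctrl clone, Ctrl 34. The means were 447 ± 255 in TKO and 1069 ± 302 in Ctrl clones (SD, n = 4 each), and the log2 fold change was -1.26 (SE 0.39). Kdr encodes VEGFR2, the main signalling receptor for VEGF-A, and its record (NM_010612; chromosome 5, 76328852 to 76374483, minus strand, mm9) had 32.3, 34.3, 65.1 and 63.3 normalized counts in TKO clones, against 21.7, 28.8, 48.8 and 54.0 in Ctrl clones. Its genotypes overlapped, with a log2 fold change of 0.29 (SE 0.37), and the clones sorted by series instead.

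Promoter sequence was at hand for 6 of the 10 genes (RefSeq, GRCm38.p6: Flt1, Kdr, Nrp1, Tek, Tie1 and Eng). The 250 bases before the transcription start of 4 of them are shown because these genes differed between the clone series below, Flt1, Kdr and Nrp1 in one direction and Tie1 in the other. Capitals mark GGAAG or its reverse complement CTTCC (the core bound by ETS factors) and, in Flt1, TGACGTCA (the cAMP response element).
Flt1 (chr5:147726012-147726261, minus strand): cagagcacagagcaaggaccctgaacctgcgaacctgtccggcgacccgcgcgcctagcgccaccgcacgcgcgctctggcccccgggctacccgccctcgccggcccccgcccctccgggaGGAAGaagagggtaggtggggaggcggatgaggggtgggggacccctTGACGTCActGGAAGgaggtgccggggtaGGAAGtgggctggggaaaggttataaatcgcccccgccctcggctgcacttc
Kdr (chr5:75978456-75978705, minus strand): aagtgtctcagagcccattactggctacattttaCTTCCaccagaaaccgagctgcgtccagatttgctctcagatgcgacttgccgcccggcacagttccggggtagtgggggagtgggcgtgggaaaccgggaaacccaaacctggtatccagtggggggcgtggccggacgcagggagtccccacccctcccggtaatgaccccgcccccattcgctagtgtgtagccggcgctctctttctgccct
Nrp1 (chr8:128358823-128359072, plus strand): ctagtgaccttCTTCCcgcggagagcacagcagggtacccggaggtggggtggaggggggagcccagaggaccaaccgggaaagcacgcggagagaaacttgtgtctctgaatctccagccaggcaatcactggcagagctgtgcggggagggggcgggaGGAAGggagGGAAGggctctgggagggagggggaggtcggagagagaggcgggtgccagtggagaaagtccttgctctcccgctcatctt
Tie1 (chr4:118489850-118490099, minus strand): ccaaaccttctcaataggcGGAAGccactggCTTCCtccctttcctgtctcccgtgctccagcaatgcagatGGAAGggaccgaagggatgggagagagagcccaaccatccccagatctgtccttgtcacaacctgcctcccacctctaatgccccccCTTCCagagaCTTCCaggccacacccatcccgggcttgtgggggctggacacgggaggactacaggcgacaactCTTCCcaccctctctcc
On both strands together, GGAAG occurred 3 times in Flt1, once in Kdr, 3 times in Nrp1, 6 times in Tie1, 2 times in Eng and not at all in Tek. It occurs in 64.1% of all 32851 promoter windows of this length, and TGACGTCA, found in Flt1 among the 6, occurs in 1.55% of them. The windows differ more in CpG content: 23 CpG in Flt1, 16 in Kdr and 11 in Nrp1, against 6 in Tie1, 4 in Eng and 2 in Tek, where the median of all windows is 6. A match of letters is a description and not a binding site.

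Neither angiopoietin receptor gene separated the genotypes. Tek encodes TIE2, the receptor of the angiopoietins, and its record (NM_013690; chromosome 4, 94405980 to 94541667, plus strand, mm9) had 349, 365, 379.6 and 504 normalized counts in TKO clones, against 225, 534, 396 and 384 in Ctrl clones. The TKO clones all lay inside the Ctrl range, and the log2 fold change was 0.05 (SE 0.24). Tie1, the orphan relative that modulates TIE2 (NM_011587; chromosome 4, 118143796 to 118162666, minus strand, mm9), had 69.0, 78.2, 17.0 and 35.9 normalized counts in TKO clones, against 97.5, 46.1, 16.6 and 11.2 in Ctrl clones. In both genotypes the clones of the thirties were the high ones. Its log2 fold change of 0.35 (SE 0.67) ran from -0.004 without Ctrl 43 to 1.08 without Ctrl 33.

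The junction and surface genes had means per kilobase of transcript below the median tested record in both genotypes, with Esam the highest of them and Cdh5 and Eng the lowest. Cdh5, the endothelial cadherin of adherens junctions (NM_009868; chromosome 8, 106625525 to 106668402, plus strand, mm9), had 3.40, 4.83, 7.01 and 5.98 normalized counts in TKO clones, against 19.0, 15.8, 12.5 and 5.09 in Ctrl clones. The groups overlapped through Ctrl 43, and with 5 to 12 reads per library the log2 fold change of -1.24 (SE 0.44) rests on few reads. Pecam1 (NM_008816; chromosome 11, 106515531 to 106611942, minus strand, mm9) had 72.4, 64.7, 46.1 and 41.0 normalized counts in TKO clones, against 48.8, 92.2, 32.2 and 24.5 in Ctrl clones. These overlapped, with a log2 fold change of 0.21 (SE 0.41). Esam, an immunoglobulin-family adhesion molecule of endothelial tight junctions (NM_027102; chromosome 9, 37335663 to 37345904, plus strand, mm9), had 71.9, 81.6, 64.1 and 46.2 normalized counts in TKO clones, against 40.6, 54.7, 104.9 and 89.7 in Ctrl clones. Its order depended on the series: both TKO clones were above both Ctrl clones in the thirties and below both in the forties, which left a log2 fold change of -0.16 (SE 0.32) over all clones. Eng (NM_001146350; chromosome 2, 32502115 to 32538189, plus strand, mm9) had 3.40, 2.41, 9.02 and 2.56 normalized counts in TKO clones, against 5.42, 1.44, 7.27 and 5.09 in Ctrl clones. With 1 to 9 reads per library its groups overlapped, with TKO 47 the highest clone and Ctrl 34 the lowest, and the log2 fold change was -0.27 (SE 0.58).

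Some of these levels are uncertain because the genes have several records. Eng has 3 records, of which 1 is at 0 in all libraries and the other 2 hold 28 and 38 reads in total, and Pecam1 has 2 records with 192 and 493 reads. Across the table, records of symbols with several records had a median of 13 reads in total and 28.4% were at 0 in all libraries, against 802 reads and 13.2% for symbols with a single record. No source gives the rule for reads shared by several records. With the records summed per symbol, the log2 fold change was 0.05 (SE 0.40) for Pecam1 and -0.12 (SE 0.48) for Eng. The 6 records of Vegfa, the ligand gene of FLT1 and KDR, and the 2 of Mmrn1 are all listed at 0, so no level is given for either.

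Across the 10 genes the log2 fold change of TKO over Ctrl was below 0 in 6 and above 0 in 4, with a median of -0.22, beside -0.01 over all tested records. The following counts are fixed in part by the choice of the genes, so they test nothing and are read as a description. Past an adjusted p of 0.05 in edgeR's quasi-likelihood fit, Mmrn2 was the 1 of the 10 lower in TKO clones and none was higher (all tested records: 0.154% and 0.0862%). With the clone series in the model 3 were lower, Mmrn2, Flt1 and Nrp1 (all records: 3.1%). Genotypes did not overlap for 1 of the 10 (all records: 8.33%). Leaving out a clone turned the sign of the log2 fold change for 5 of the genes, namely Tek, Tie1, Pecam1, Eng and Esam.

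**Figure D2:**
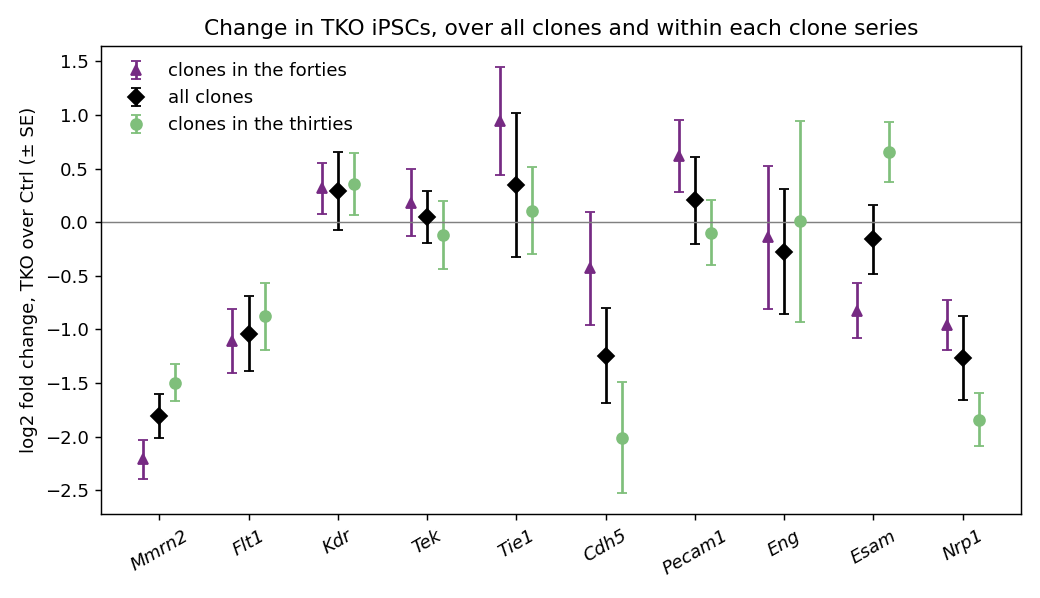
Log2 fold change of TKO over Ctrl (vertical axis, with SE bars) for each of the 10 genes (horizontal axis), for clones in the forties (purple triangles), all clones (black diamonds) and clones in the thirties (green circles). Mmrn2, Flt1, Cdh5 and Nrp1 lie below 0 in both series, Kdr and Tie1 above 0 in both, and Esam lies at -0.82 in the forties and 0.65 in the thirties.

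Among the 10 genes, 5 differed between the clone series, a comparison that played no part in choosing them. Over both genotypes, Nrp1, Kdr and Flt1 were higher in the forties and Tie1 and Pecam1 lower (edgeR's quasi-likelihood test with Benjamini-Hochberg adjustment over all tested records). The series differed widely across the transcriptome, with 14.1% of all records higher in the forties and 13% lower, so the 3 and 2 of 10 stand against those shares. The median log2 difference was 0.21 over the 10 genes and -0.01 over all records.

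Nrp1 had 552 and 759 normalized counts in TKO and 1214 and 1333 in Ctrl clones of the forties, against 229.7 and 248 in TKO and 1089 and 642 in Ctrl clones of the thirties, a log2 difference of 1.01 (SE 0.17, adjusted p = 0.00343). The forties were the higher ones within each genotype, although the series overlapped when both genotypes were pooled. Kdr had 48.8 to 65.1 normalized counts in the 4 clones of the forties, against 21.7 to 34.3 in the 4 of the thirties, with no overlap and a log2 difference of 0.96 (SE 0.19, adjusted p = 0.00609). Flt1 had 256 to 783 in the forties, against 155 to 344 in the thirties, a log2 difference of 0.86 (SE 0.22, adjusted p = 0.0185). The series of Flt1 overlapped, and its call was lost without Ctrl 41, where the difference became 0.55 with an adjusted p of 0.0534. It was also lost without TKO 35, TKO 37 or TKO 48, with adjusted p of 0.0797, 0.062 and 0.0548.

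Tie1 moved the other way. It had 11.2 to 35.9 normalized counts in the forties, against 46.1 to 97.5 in the thirties, with no overlap and a log2 difference of -1.87 (SE 0.32, adjusted p = 0.00376). Pecam1 had 24.5 to 46.1 in the forties, against 48.8 to 92.2 in the thirties, with no overlap and a log2 difference of -1.01 (SE 0.23, adjusted p = 0.0117). The call of Pecam1 was lost without Ctrl 43 (adjusted p = 0.0597) or TKO 35 (adjusted p = 0.0573). Series that did not overlap were thus found for 3 of the 10 genes, Kdr above and Tie1 and Pecam1 below, where 16.1% of all tested records had none.

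The other 5 genes did not pass. Their log2 differences were 1.01 (SE 0.57) for Eng, 0.26 (SE 0.19) for Esam, 0.16 (SE 0.22) for Tek, -0.16 (SE 0.38) for Cdh5 and -0.34 (SE 0.12) for Mmrn2, with adjusted p of 0.219, 0.351, 0.638, 0.781 and 0.066. Mmrn2 passed with DESeq2 (adjusted p = 0.0469) and without TKO 47 (adjusted p = 0.0425), and Tek without Ctrl 34 (adjusted p = 0.0162).

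Beside these differences, the summed normalized count of 8 early mesoderm markers (T, Mesp1, Mixl1, Tbx6, Pdgfra, Foxf1, Hand2 and Lhx1) also separated the series. It was 196 and 386 in TKO and 868 and 509 in Ctrl clones of the forties, against 66.2 and 64.7 in TKO and 111 and 86.4 in Ctrl clones of the thirties, with none of the 8 at 0 in every library. T and Lhx1 were its largest parts in the forties, with Lhx1 at 535 in Ctrl 41. Of 7 measured early mesoderm markers 5 were higher in the forties, where 14.1% of all records were, and none was lower, where 13% were. Lhx1, among the 5, passed the filter on low counts through clones of the forties alone, so this count is fixed in part by the filter. Tbx6 was not among the 5, with 16.0 and 23.1 in TKO and 15.6 and 11.2 in Ctrl clones of the forties, against 34.5, 30.9, 29.8 and 13.0 in the thirties. Nor was Foxf1, with 1.71 to 5.19 in the forties, against 3.86 to 19.0 in the thirties. The sum of 8 trophoblast markers was 184 to 360 in the forties, against 397 to 1344 in the thirties, with Hand1 as its largest part in TKO 35 and 37 and Tpbpa at 0 throughout. Among 7 blood cell markers, the 4 records of Runx1 and 1 of the 2 of Ptprc are listed at 0 throughout, which gives no level for genes with several records. Of the 3 measured blood cell markers 2 were lower in the forties, where 13% of all records were, and none was higher, where 14.1% were. Gata1 reached 434 and 442 normalized counts in TKO 35 and 37. Spi1 went the other way and was lowest in TKO 35 and 37, at 5.66 and 10.6, against 14.5 to 29.0 in the other clones. Of 10 fibroblast markers, 6 were higher in the forties, where 14.1% of all records were, and 1 was lower, where 13% were (median log2 difference 0.71). Within TKO clones 9 were higher (median 1.46), where 13% of all records were. Within Ctrl clones none was higher, where 3.26% of all records were, and 3 were lower, where 3.32% were (median -0.32). Of 6 measured primitive endoderm markers 3 were higher in the forties, where 14.1% of all records were, and none was lower, where 13% were. Sox7 and Sox17, among these 3, are also counted below as endothelial transcription factors. The part of the cell types named here in the series differences was not tested.

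**Figure D3:**
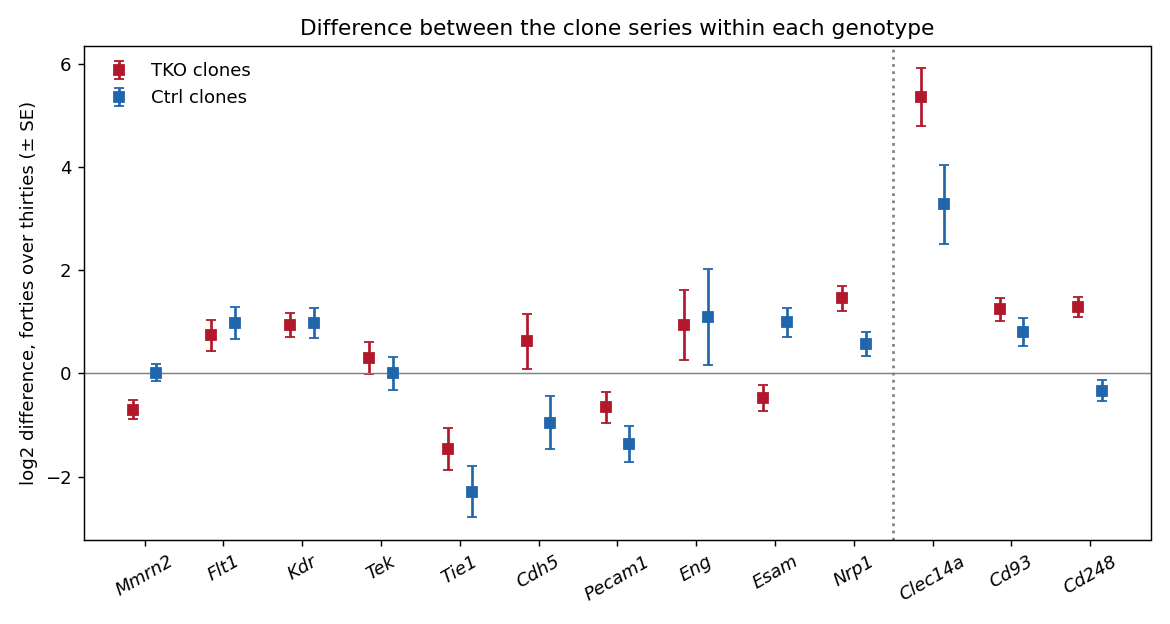
Log2 difference between clones in the forties and clones in the thirties (vertical axis, with SE bars), within TKO clones (red, left of each pair) and within Ctrl clones (blue), for the 10 genes and, right of the dotted line, for the receptor genes of MMRN2. Nrp1, Kdr and Flt1 lie above 0 and Tie1 and Pecam1 below 0 in both genotypes, while Mmrn2 lies at -0.70 within TKO and 0.02 within Ctrl clones.

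Taken within a genotype, the series difference reached the threshold for 4 genes in TKO clones and for 2 in Ctrl clones. Within TKO clones Nrp1 (log2 difference 1.46, adjusted p = 0.00408) and Kdr (0.94, adjusted p = 0.0199) were higher in the forties, where 13% of all records were. Mmrn2 (-0.70, adjusted p = 0.021) and Tie1 (-1.45, adjusted p = 0.031) were lower, where 10.9% were. Within Ctrl clones Tie1 (-2.29, adjusted p = 0.0299) and Pecam1 (-1.37, adjusted p = 0.0478) were lower, where 3.32% of all records were, and none of the 10 was higher, where 3.26% were. Each of these comparisons sets 2 clones against 2.

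Whether the TKO change differed between the series was tested as an interaction of genotype and series in edgeR, and none of the 10 genes passed, where 1.3% of all records did. DESeq2 also called none. At an unadjusted p under 0.05 there were 3 of the 10, Esam, Mmrn2 and Nrp1, where 18.7% of all records passed. Esam had the lowest p (interaction -1.48, the log2 change in the forties minus that in the thirties, SE 0.38, adjusted p = 0.0892). For Mmrn2 the interaction was -0.72 (SE 0.24, adjusted p = 0.164), so its lower level in the TKO clones of the forties than in those of the thirties is not shown to be particular to TKO. Nrp1 had an interaction of 0.89 (SE 0.34, adjusted p = 0.202), which passed without Ctrl 34 (1.23, SE 0.24, adjusted p = 0.0289).

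Per kilobase of transcript, which makes levels of different genes comparable, the 10 genes spanned a wide range. Tek was the highest in TKO clones with 85.8 ± 15.2 normalized counts per kilobase (SD, n = 4), followed by Mmrn2 with 76.7 ± 21.8 and Nrp1 with 75.5 ± 43.1. Tek exceeded Mmrn2 in 2 of the 4 TKO clones and Mmrn2 exceeded Nrp1 in 2, so these 3 were not ordered in TKO clones. In Ctrl clones Mmrn2 came first with 269 ± 32.1 normalized counts per kilobase, above Nrp1 with 181 ± 51.0 in all 4 clones, and Nrp1 exceeded Tek, with 82.7 ± 27.2, in 3 of 4. Among all tested records, Mmrn2 thereby stood at the 47.3 percentile of the per-kilobase level in TKO clones and at the 65.8 percentile in Ctrl clones. In both genotypes Pecam1, Tie1, Kdr, Cdh5 and Eng had the lowest means. Tie1 exceeded Kdr in 2 of 4 clones of each genotype and Cdh5 exceeded Eng in 2 of 4 TKO clones, so these pairs were not ordered there. Pecam1 had 17.0 ± 4.51 normalized counts per kilobase in TKO and 14.9 ± 9.16 in Ctrl clones, and Kdr had 8.92 ± 3.27 in TKO and 7.01 ± 2.84 in Ctrl clones. Cdh5, the defining endothelial cadherin, had 1.32 ± 0.39 in TKO and 3.27 ± 1.49 in Ctrl clones, which are the 2.26 and 8.64 percentiles. The median tested record had 94.4 in TKO and 94.2 in Ctrl clones.

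Among the 10 genes, the profiles most like each other over the 8 clones were those of Kdr and Tek, by the mean absolute difference of log2(normalized count + 1) after centring each gene on its mean (0.37). Flt1 and Nrp1 were nearest to each other (0.42), and Tie1, whose nearest gene was Pecam1 (0.67), was the farthest gene from all the others but Pecam1. Cdh5 was the nearest to Mmrn2 among the 10, at 0.59. Among the 11115 tested records that averaged 50 normalized counts or more, for which the median distance from Mmrn2 was 0.93, the nearest included Nrsn1 (0.34), Rps15a-ps4 (0.34), Fam25c (0.35) and Epas1 (0.36). These 4 were low in TKO and high in Ctrl clones, and Epas1, the hypoxia-inducible factor 2 alpha, averaged 352 ± 83.4 in TKO and 995 ± 99.0 in Ctrl clones (SD, n = 4 each). The clones share genotype, series and depth, so likeness is a description over 8 libraries.

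Fam25c lies 20.1 kb from Mmrn2 on chromosome 14 in mm9, with Sncg between them. It had 315, 279.9, 319 and 140.2 normalized counts in TKO clones, against 1270.4, 1819, 1128 and 971 in Ctrl clones, with no overlap (log2 fold change -2.30, SE 0.28, edgeR adjusted p = 0.0106). Of the 15 tested records within 500 kb of Mmrn2, Fam25c was the gene that fell, where 0.154% of all records did, and none rose. The study's own list of changed genes from these samples holds the Fam25c record under another name, so its fall is no independent evidence. Sncg, 0.715 kb from Mmrn2, had 270.1 ± 78.1 in TKO and 254 ± 29.6 in Ctrl clones (log2 fold change 0.09, SE 0.23), and Bmpr1a, 6.45 kb away on the other side, had 2533 ± 84.8 in TKO and 2808 ± 306 in Ctrl clones (log2 fold change -0.15, SE 0.10). Neither passed, with adjusted p of 0.873 and 0.490. With the clone series in the model Fam25c fell, where 3.1% of all records did. Anxa8 rose (log2 fold change 0.58, SE 0.14, adjusted p = 0.0416), where 2.6% of all records did. Antxrl was also called higher, with a mean of 4.55 normalized counts in TKO clones, and was listed at 0 in every Ctrl clone. Antxrl passed the filter on low counts through the TKO clones alone, so its call tests nothing, and the study's own list of changed genes holds it. Mmrn2 is 35.6 Mb from Mili, one of the targeted genes, on the same chromosome.

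**Figure D4:**
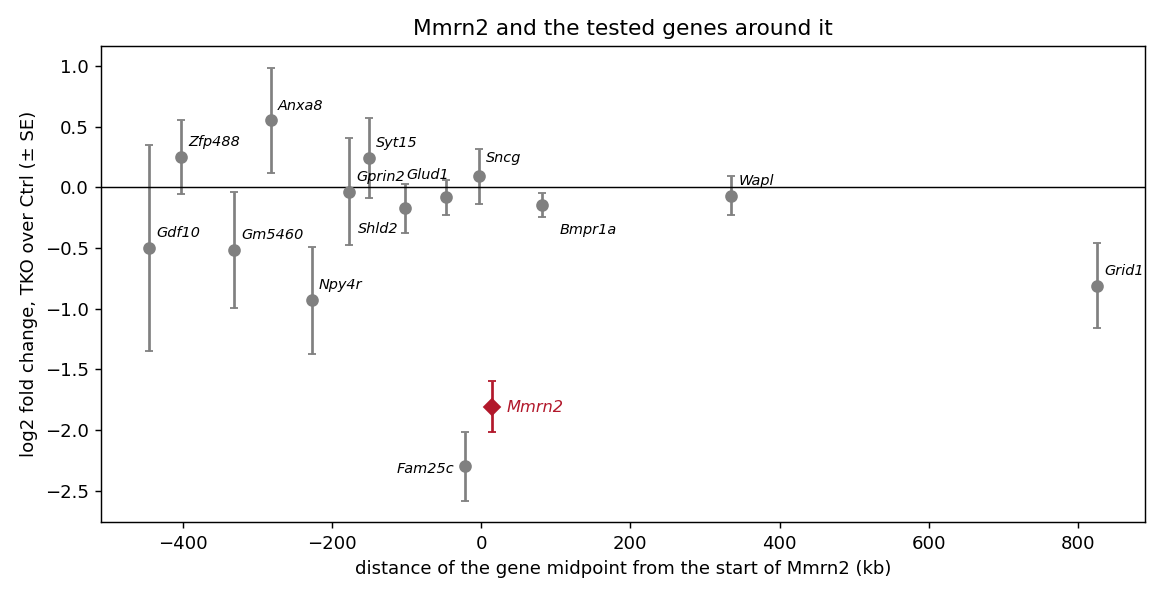
Log2 fold change of TKO over Ctrl (vertical axis, with SE bars over 4 clones each) of Mmrn2 (red diamond) and of tested genes around it (grey), against the distance of each gene's midpoint from the start of Mmrn2 in kilobases (horizontal axis). Mmrn2 and Fam25c lie at -1.81 and -2.30, and Sncg and Bmpr1a on either side of Mmrn2 lie at 0.09 and -0.15; Antxrl, listed at 0 in every Ctrl clone, is left out.

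The ligands, partners and other endothelial genes around the 10 were taken from 9 lists of 98 genes in all, of which 86 passed the filter on low counts. In TKO against Ctrl clones 4 of the 86 fell, where 0.154% of all records did, and none rose, where 0.0862% did. No gene rose with DESeq2 or limma-voom either, and 2 were higher at an unadjusted p under 0.05. Among them were Epas1 (log2 fold change -1.50, SE 0.17, adjusted p = 0.00787), Fgf2, an angiogenic growth factor (-1.93, SE 0.28, adjusted p = 0.0253), and Thbd, the thrombin receptor thrombomodulin (-1.40, SE 0.23, adjusted p = 0.0455). All 4 stand in the study's own list of changed genes from these samples and are no independent evidence of a direction. Epas1 was called whichever clone was left out, and Fgf2 and Thbd were not. The median log2 fold change over the 86 was -0.20, beside -0.01 over all records.

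With the clone series in the model 11 of the 86 fell, where 3.1% of all records did, and none rose, where 2.6% did; 2 were higher at an unadjusted p under 0.05, and DESeq2 called 1 higher. Beside the 4 above these were Dok2, an adaptor of TEK (log2 fold change -0.86, SE 0.21, adjusted p = 0.0446), Tgfbr1, the type I TGF-beta receptor (-0.43, SE 0.10, adjusted p = 0.0403), and Robo4, Apold1, Sox7, Thbs1 and Ccn2, with log2 fold changes of -0.90, -1.81, -1.07, -1.05 and -0.74. Without TKO 35 or without TKO 37 the calls numbered 3, Epas1 and Fgf2 among them. All TKO clones were below all Ctrl clones for each of the 11 but Tgfbr1, where 8.33% of all records had no overlap in either direction. The 11 were called by this same comparison, so their separation is no further evidence. The VEGF ligand and co-receptor list had no call among its 7 measured genes, and its most abundant were Plxnd1, a semaphorin receptor (300.3 ± 32.2 in TKO and 294 ± 75.6 in Ctrl clones), and Flt4, the lymphatic VEGF receptor VEGFR3 (241 ± 26.0 in TKO and 229 ± 34.8 in Ctrl clones). Nor did the Notch and ephrin list, with Notch1 at 2641 ± 654 in TKO and 2475 ± 311 in Ctrl clones and Notch4 at 1158 ± 130 in TKO and 1132 ± 313 in Ctrl clones. The apelin, adrenomedullin and endothelin list had no call among 6 measured genes, with Adm at 140.4 ± 17.1 in TKO and 168 ± 63.3 in Ctrl clones and Apln at 145 ± 76.9 in TKO and 88.1 ± 17.7 in Ctrl clones (SD, n = 4 each).

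None of the 3 genes for receptors of MMRN2 passed between genotypes over all clones. All 3 were called higher in the forties averaged over the genotypes, where 14.1% of all records were. They are singled out after their values were seen. Clec14a had 30 and 49 reads in TKO and 14 and 23 reads in Ctrl clones of the forties, against 1 and 2 reads in TKO and 0 and 2 reads in Ctrl clones of the thirties. It passed the filter on low counts through the clones of the forties alone, so its call was fixed in part by the filter and no p is given. Cd93 had 62.1 and 59.8 normalized counts in TKO and 57.1 and 52.0 in Ctrl clones of the forties, against 25.5 and 26.1 in TKO and 32.5 and 30.2 in Ctrl clones of the thirties, a log2 difference of 1.02 (SE 0.18, adjusted p = 0.00401). Cd248, which fibroblasts and pericytes also express, had 941 and 972 in TKO and 806 and 846 in Ctrl clones of the forties, against 396 and 389 in TKO and 1303 and 792 in Ctrl clones of the thirties (log2 difference 0.48, SE 0.14, adjusted p = 0.0349). Cd248 passed within TKO clones (log2 difference 1.28, adjusted p = 0.00316), with -0.33 within Ctrl clones (adjusted p = 0.344), and its TKO change differed between the series (interaction 1.62, SE 0.28, adjusted p = 0.0388). In TKO against Ctrl clones their adjusted p were 0.839, 0.981 and 0.513, and the multimerin and EMILIN list as a whole had no call among 6 measured genes over all clones. Within the thirties 2 of the 6 fell in TKO clones, Cd248 (log2 fold change -1.40, SE 0.20) and Emilin2 (-1.18, SE 0.21), with adjusted p of 0.00616 and 0.0107, where 7.05% of all records did. The same 2 passed the interaction test, where 1.3% of all records did. In the same comparison within the thirties 8 of 10 fibroblast markers fell (median log2 fold change -1.22), and their part was not tested.

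Marker sums of other cells were also compared between genotypes, and none of the 10 fibroblast and 6 measured mural cell markers passed the test in TKO against Ctrl clones (at an unadjusted p under 0.05, none and 2). The summed normalized count of 7 mural cell markers was 6568 to 9884 in TKO and 9935 to 24249 in Ctrl clones without overlap, with Acta2, the smooth muscle actin that activated fibroblasts also make, at 3005 to 6949 in TKO and 6994 to 19078 in Ctrl clones, and none of the 7 was at 0 in every library. The sum of 10 fibroblast markers was 20200 to 35735 in TKO and 21049 to 59005 in Ctrl clones, with the highest values in Ctrl 33 and 34, and none of the 10 was at 0 in every library. The study picked colonies onto feeder MEFs, and the part of fibroblasts or mural cells in the genotype differences was not tested.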

How the data were processed

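RNA of 8 iPSC clones was sequenced by the authors (Illumina TruSeq RNA kit, single-end reads), and reads were aligned with BWA 0.7.5a to mm9 transcripts. The deposited table holds raw whole-number read counts for 27052 RefSeq records per library, neither scaled nor filtered. The counting rule, the treatment of reads matching several records and the use of strand are not given in the sources used here.

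Names came from RefSeq (GRCm38.p6, names only) for 26321 records, positions from GENCODE in mm9 and promoter windows from RefSeq (GRCm38.p6). A record was kept if it reached 5 reads in 4 or more libraries (16235) and scaled with DESeq size factors, from 0.369 to 2.07. edgeR 4.0.16 (R 4.3.3) quasi-likelihood tests with Benjamini-Hochberg adjustment over all kept records (threshold 0.05) were fitted with genotype alone, with genotype and clone series, and with each of the 4 genotype and series combinations as a group. The methods were tested on simulated counts, and for TKO against Ctrl they recovered 31 of 67 records at a fold of 1.5 and 64 of 67 at 2.5. Of 16035 unchanged records, 12 were called. The simulated counts held no difference between the clone series, and their spread was that within the 4 combinations. Changes were planted in no record with a low mean count. In the real data the series differed, which widens the spread within a genotype, so the recovery may be too high for the fit with genotype alone. Alternatives were TMM, 2 other filters, DESeq2 1.42.0, limma-voom (limma 3.58.1), counts summed per symbol and leaving out each clone.

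The members and lists were chosen with earlier results of these data known. Named genes were the 10 members, up to 4 called genes per list (with the series in the model where none was called without it) or else its 2 most abundant, the 5 profiles nearest to Mmrn2 and the records within 500 kb of it. A gene that this rule names is not reported here.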

Additional observations from a re-analysis of the deposited data

Results flagged for a closer look

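Eng in TKO 47 stood apart from the other TKO clones, with 9.02 normalized counts against 2.41 to 3.40, by Dixon's test of the gap to the nearest clone. It rests on 9 reads, and this test flags about 1 in 20 groups by chance. The 20 groups tested were the 10 genes in each genotype.

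For 6 of the 86 companion genes the TKO change differed between the clone series in the interaction test of edgeR, where 1.3% of all tested records did. All 6 had the higher log2 fold change in the forties. Of 10 fibroblast markers 4 passed in the same direction (median interaction 1.77), as did 1 of 6 measured mural cell markers (median 1.44), and their part was not tested. The change in the forties minus that in the thirties was 2.22 for Ednra (endothelin receptor A, adjusted p = 0.0388), 2.20 for Plau (urokinase, adjusted p = 0.0382), 1.62 for Cd248 (adjusted p = 0.0388), 1.46 for Emilin2 (adjusted p = 0.0491), 1.34 for Angptl2 (adjusted p = 0.045) and 0.94 for Notch4 (adjusted p = 0.0411). Plau had 647 and 1082 normalized counts in TKO and 963 and 1222 in Ctrl clones of the forties, against 111 and 121 in TKO and 813 and 543 in Ctrl clones of the thirties. TKO 35 and 37 thus stood low while the other clones overlapped. Ednra had 140.2 and 132 in TKO and 71.7 and 55.0 in Ctrl clones of the forties, against 28.3 and 43.0 in TKO and 70.4 and 83.5 in Ctrl clones of the thirties.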

How the results depend on the processing

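No paired analysis was possible because no clone number occurs in both genotypes, so no replicate block could be formed. Among the 10 genes, no difference between the series that passed its threshold changed sign under any alternative, and the calls of single companion genes and of the neighbours of Mmrn2 were not rerun gene by gene. Of the 10 genes, 5 differed between the series, from 3 (without TKO 35) to 6 (without Ctrl 34 or TKO 47) when a clone was left out, and 6 with DESeq2. For the interaction the count was 0, and 0 to 1 (1 without Ctrl 34) when a clone was left out. Log2 fold changes of TKO over Ctrl were below 0 for 6 genes, and for 4 (without Ctrl 41) to 8 (without Ctrl 43) when a clone was left out. In the companion lists the 4 calls of TKO against Ctrl became 9 with DESeq2 and 2 to 4 when a clone was left out, with 2 without Ctrl 33, 41 or 43 or TKO 35, 37 or 47. With the series in the model the 11 calls became 18 with DESeq2, 16 without a filter, and 3 to 17 when a clone was left out: 3 without TKO 35 or TKO 37, 5 without Ctrl 41, 6 without TKO 47, 7 without Ctrl 43 and 17 without TKO 48. The cause was not tested. Over the 10 genes' series differences and interactions, 241 values kept their side of the threshold, 6 lost it and 4 gained it. Depth limits Cdh5 (5 to 12 reads) and Eng (1 to 9 reads), and with at least 10 reads in every library 7 of the 10 genes were left.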

Other observations

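Other endothelial genes also differed between the clone series. Of the 86 measured companion genes, 22 were higher in the forties, where 14.1% of all tested records were, and 4 were lower (Ephb4, Selp, Gata2 and Ccn2), where 13% were. Clec14a is among the 22 and passed the filter on low counts through clones of the forties alone. The median log2 difference over the 86 was 0.15, beside -0.01 over all records. Among 14 measured endothelial transcription factors, Sox17 (log2 difference 1.90, SE 0.49), Ets1 (1.47, SE 0.32), Fli1 (1.36, SE 0.39) and Sox7 (0.74, SE 0.21) were higher, with adjusted p of 0.0206, 0.0111, 0.0293 and 0.0317 in edgeR, and Gata2 was lower (-0.70, SE 0.13, adjusted p = 0.00476). Ets1 and Fli1 are ETS factors of vessels and blood, and SOX7 and SOX17 also act in primitive and definitive endoderm. Ets1 had 21.0 and 33.3 normalized counts in TKO and 45.7 and 36.7 in Ctrl clones of the forties, against 11.9 and 8.20 in TKO and 24.4 and 8.64 in Ctrl clones of the thirties, where Ctrl 33 was the clone that overlapped.

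Among 8 measured partners of endoglin, Acvrl1, the type I receptor ALK1 (1.53, SE 0.22, adjusted p = 0.00174), and the BMP target genes Id1 (1.23, SE 0.24, adjusted p = 0.00618) and Id3 (0.85, SE 0.21, adjusted p = 0.0164) were higher in the forties, where 14.1% of all records were. None was lower, where 13% were. Acvrl1 had 229 and 263 normalized counts in TKO and 163 and 228 in Ctrl clones of the forties, against 70.7 and 89.8 in TKO and 100.2 and 50.4 in Ctrl clones of the thirties. Its series did not overlap, as for 16.1% of all records. Angpt2 (0.64, SE 0.19, adjusted p = 0.0341), an antagonist of TEK, and Vegfd (0.74, SE 0.17, adjusted p = 0.0124), a ligand of FLT4, were higher in the forties as well. The early mesoderm marker Mixl1 was also higher in the forties (2.80, SE 0.38, adjusted p = 0.00135), and its part in these differences was not tested.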
